A study of Mus musculus with 12 samples.

Results

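The 10 genes described here, Mvp, Vwa5a, Arpin, Lratd2, Extl1, Slc26a6, Asrgl1, Ldhd, Rbms2 and S100a16, were chosen by their array values: all 3 arrays with Sephs1 targeted lay below all 3 control arrays both in mouse liver and in F9 cells. The same arrangement was found in 254 of the 18193 genes measured, so it does not by itself set these 10 apart. The 10 genes are covered by 18 probe sets. Both comparisons entered the choice, so the differences between groups are given as a description and carry no test. Sephs1 encodes selenophosphate synthetase 1 (SPS1). The livers came from male C57BL/6 mice aged 3 months, 3 of them controls and 3 labelled as a knockout specific to hepatocytes, made with Alb-Cre, a Cre recombinase driven by the albumin promoter. By that design the other liver cells would keep the gene, and the labels do not give the genotype of the control mice. F9 is a male mouse embryonal carcinoma line derived from a testicular teratoma of strain 129, measured as 3 control samples and 3 with an shRNA against Sephs1 (shSPS1). The labels number each of these as a biological replicate and do not say whether the F9 samples were separate cultures, what the F9 controls received or whether the knockdown line is 1 clone.

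The 10 genes do not form a pathway. Mvp encodes the major vault protein, which builds the shell of vaults, large barrel-shaped ribonucleoprotein particles of the cytoplasm. Arpin blocks the Arp2/3 complex, the actin nucleator that pushes lamellipodia forward, and so slows migrating cells. Vwa5a encodes a cytoplasmic protein with a von Willebrand factor A domain, whose human counterpart has been studied as a candidate tumour suppressor, and Lratd2 encodes a little-studied protein with an LRAT-like domain. Asrgl1, Ldhd and Extl1 encode enzymes: an asparaginase that also cleaves isoaspartyl peptides, the mitochondrial dehydrogenase of D-lactate, and an exostosin-like glycosyltransferase of heparan sulfate chains. Slc26a6 encodes an exchanger of chloride, oxalate and bicarbonate. Rbms2 encodes an RNA-binding protein, and S100a16 a calcium-binding protein of the S100 family.

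Each array held 45101 probe sets, and levels are log2 signals as the authors deposited them. The brightest of a gene's probe sets over the 6 arrays of a system stands for the gene, and liver and F9 values were deposited as separate tables whose normalization is not stated, so no level was compared between them. In F9 the Sephs1 signal fell from 10.003 ± 0.06 to 7.80 ± 0.04 (SD, n = 3 each; adjusted p = 1.28e-05, limma). In liver it was 9.84 ± 0.10 in control mice and 10.03 ± 0.13 in mice labelled knockout (adjusted p = 0.789, limma). The arrays thus did not show a loss of Sephs1 signal in liver, and the reason was not tested. The labels do not name the deleted exons, and whether the probes cover them is not known here. The labels' tissues were borne out by their markers: all 6 measured hepatocyte markers in liver, and all 7 embryonal carcinoma markers in F9, had control means above the median signal of the arrays. In whole-tissue or whole-culture RNA, fewer cells of a type and less RNA per cell cannot be told apart.

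At the gene level all 10 genes lay wholly below their controls in liver, an arrangement found in 6.36% of all genes, and all 10 in F9, found in 15.7% of all genes. The share of genes with this arrangement in both systems was 1.4%, or 254 genes. Since this arrangement was the rule, nothing follows from these counts. The median difference over the 10 genes, targeted minus control, was -1.78 in liver, with a range of -3.12 to -0.65, against 0.03 over all genes. In F9 the median was -0.94, with a range of -2.60 to -0.33, against -0.01 over all genes. The fold decrease thus ran from 1.57 to 8.70 in liver and from 1.26 to 6.05 in F9. The difference was larger in size in liver for 8 of the genes and in F9 for 2, Vwa5a and Lratd2, and this contrast between the systems was not tested. Replicates were more spread in liver, with a median SD over all genes of 0.33 against 0.11 in F9. The same rule therefore admits smaller differences in F9 than in liver.

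**Figure D1:**
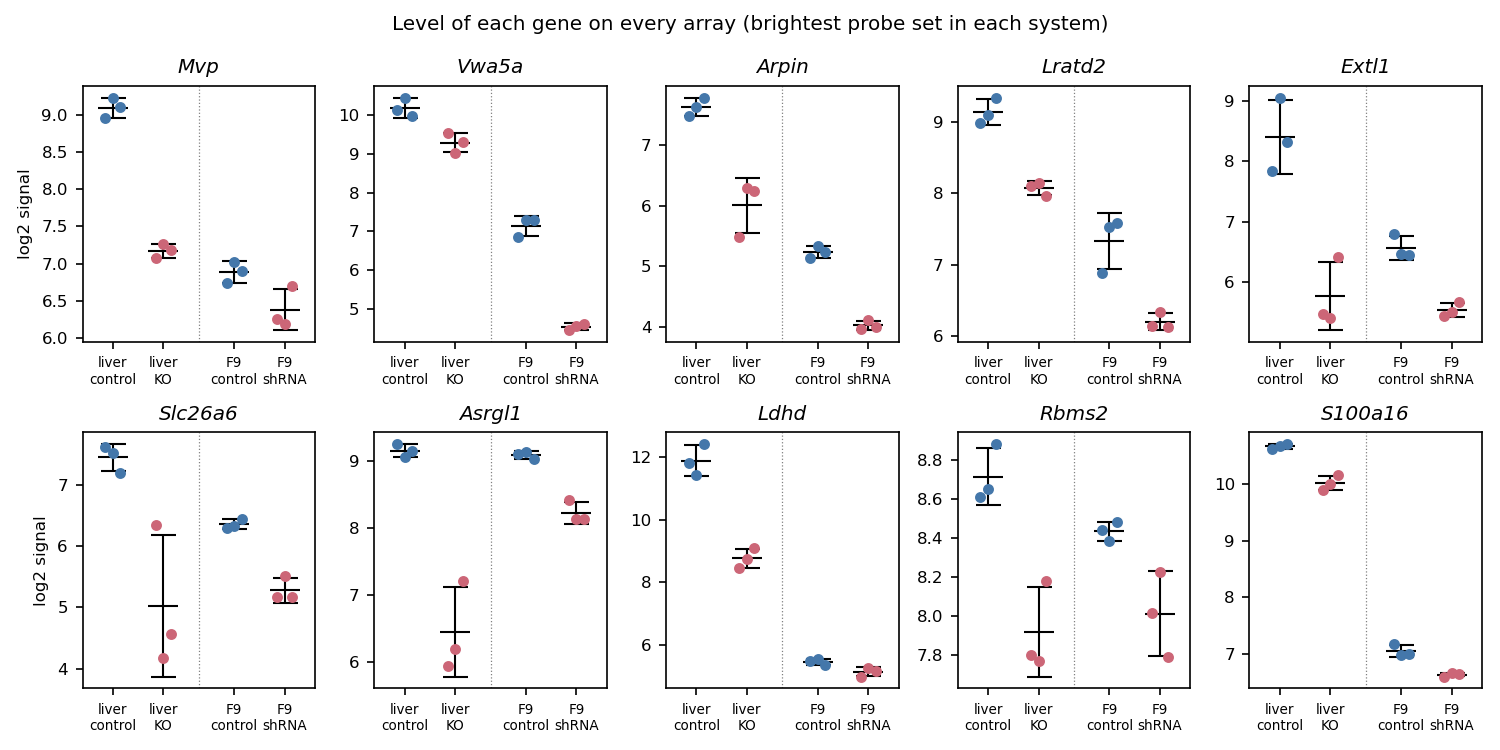
Log2 signal (vertical axis, a scale of its own in each panel) of each gene on all 12 arrays, on the brightest probe set in each system; blue points are control arrays, red points arrays with Sephs1 targeted (KO, livers labelled knockout; shRNA, F9 knockdown), and black bars the mean and SD of 3 arrays. In each panel the red points lie below the blue points of the same system, by as little as 0.03 for Mvp in F9 and as much as 2.36 for Ldhd in liver.

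The vault gene Mvp read 8.96, 9.23 and 9.10 in control livers and 7.08, 7.26 and 7.18 in livers labelled knockout. The mean went from 9.10 ± 0.14 to 7.17 ± 0.09 (SD, n = 3 each), a 3.80-fold decrease, with the groups 1.70 apart at their nearest arrays. The other Mvp probe set also lay wholly below in liver, with a difference of -3.28 that rested partly on 1 very dim array (2.46, against 6.71 and 6.30 on the other 2). In F9 Mvp read 6.73, 7.03 and 6.89 in control and 6.26, 6.19 and 6.70 in knockdown cells. Knockdown sample 3 came within 0.03 of control sample 1, so Mvp met the rule in F9 by the narrowest margin of the 10 genes. The F9 difference was -0.50 on this probe set and -0.56 on the other, where the groups were 0.09 apart. The brighter probe set has the suffix _x_at, which Affymetrix gives to sets whose probes may bind other transcripts.

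Vwa5a showed the largest decrease of the 10 in F9. It read 6.85, 7.28 and 7.29 in control cells and 4.45, 4.57 and 4.61 in knockdown cells, a 6.05-fold decrease from 7.14 ± 0.25 to 4.55 ± 0.08 (SD, n = 3 each). The knockdown values lie under the median signal of the F9 arrays (5.33 to 5.39). In liver it read 10.13, 10.45 and 9.97 in control mice and 9.53, 9.04 and 9.31 in mice labelled knockout, a 1.86-fold decrease. The second Vwa5a probe set, of the _s_at kind that can bind transcripts of several genes, did not show either decrease: it gave 0.03 in liver and 0.05 in F9, and its groups overlapped. That probe set was below the array median on all 12 arrays, at a mean of 6.01 in control livers and 3.54 in control F9 cells.

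The Arp2/3 inhibitor gene Arpin, measured by 1 probe set, had the largest difference of the 10 when the smaller of its 2 differences is taken, and ranked 7 on that measure among the 254 genes. Its values in liver were 7.48, 7.63 and 7.78 against 5.48, 6.30 and 6.24, a 3.09-fold decrease. In F9 they were 5.14, 5.33 and 5.24 against 3.96, 4.11 and 3.997, a 2.32-fold decrease. The groups were more than 1 log2 unit apart at their nearest arrays in both systems (1.18 and 1.03). The F9 signal was dim, above the array median on 1 of 6 arrays, and the liver signal was above it on 3 of 6.

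Lratd2, also measured by 1 probe set, differed by nearly the same amount in the 2 systems, -1.07 in liver and -1.13 in F9. Control livers read 8.98, 9.10 and 9.34, and livers labelled knockout 8.11, 8.15 and 7.96. In F9 the controls were the more scattered group, at 6.89, 7.53 and 7.58, against 6.14, 6.34 and 6.12 in knockdown cells. All 12 values were above the array medians.

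Among the enzymes, Asrgl1 has the most probe sets, and all 4 lay wholly below their controls in both systems. On the brightest, control livers read 9.25, 9.06 and 9.15 and livers labelled knockout 5.95, 6.20 and 7.21, a 6.48-fold decrease with a wide spread in the second group (6.45 ± 0.67, SD, n = 3). The brightest was above the array median on 4 of 6 liver arrays. The other 3 gave -2.75, -2.53 and -1.68 in liver. The last of these had the tightest knockout values (6.73, 6.89 and 6.76) and the smallest difference, while the sets giving -2.75 and -2.53 had 1 or more arrays labelled knockout at 4.05 or lower. In F9 the brightest probe set read 9.10, 9.13 and 9.02 in control and 8.42, 8.13 and 8.14 in knockdown cells, a 1.81-fold decrease. The others gave -0.94, -0.80 and -0.34, the last from a set below the array median on all 6 arrays.

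Ldhd was the gene with the largest liver difference and the smallest F9 difference of the 10. In liver, where it was bright, it read 11.81, 11.44 and 12.42 in control mice and 8.48, 8.76 and 9.08 in mice labelled knockout, an 8.70-fold decrease from 11.89 ± 0.49 to 8.77 ± 0.30 (SD, n = 3 each). The second probe set gave -2.29, from 10.94 ± 0.33 to 8.65 ± 0.05. In F9 another probe set was the brighter: 5.50, 5.53 and 5.35 in control and 4.98, 5.27 and 5.15 in knockdown cells, a difference of -0.33 with the groups 0.08 apart. These values sit at the median signal of the F9 arrays. The probe set that was brightest in liver gave -0.09 in F9 with overlapping groups, at a control mean of 4.35. The D-lactate dehydrogenase signal in F9 was thus low on both probe sets, and only 1 of them placed the groups apart.

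Extl1 read 7.83, 9.05 and 8.31 in control livers and 5.48, 5.41 and 6.42 in livers labelled knockout. This 6.18-fold decrease came with the widest control spread of the 10 in liver (8.40 ± 0.61, SD, n = 3), and the groups were 1.41 apart. In F9 the values were 6.79, 6.46 and 6.45 against 5.44, 5.50 and 5.67, a 2.04-fold decrease. The anion exchanger gene Slc26a6 read 7.61, 7.52 and 7.20 in control livers and 6.34, 4.17 and 4.57 in livers labelled knockout. Array 1 of the second group stood well above the other arrays of that group. The difference was -2.42, and -3.07 without that array. In F9 Slc26a6 read 6.30, 6.33 and 6.45 in control and 5.16, 5.52 and 5.16 in knockdown cells, a 2.11-fold decrease. Extl1 and Slc26a6 have 1 probe set each, so no second measurement of either was at hand. In liver Extl1 was above the array median on 4 of 6 arrays and Slc26a6 on 3 of 6.

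Rbms2 and S100a16 had the smallest liver differences of the 10. Rbms2 read 8.61, 8.65 and 8.88 in control livers and 7.80, 7.77 and 8.18 in livers labelled knockout (-0.79), and its second probe set gave -1.07. In F9 its brighter set read 8.44, 8.38 and 8.48 in control and 8.02, 8.23 and 7.79 in knockdown cells (-0.42), and the other gave -0.65. All 4 comparisons put the groups apart, by 0.16 to 0.60. S100a16 read 10.63, 10.68 and 10.71 in control livers and 9.91, 9.9999 and 10.17 in livers labelled knockout, a 1.57-fold decrease. In log2 units the difference was -0.65, with an SD of 0.04 in control and 0.13 in knockout (n = 3 each). In F9 S100a16 read 7.17, 6.97 and 7.01 against 6.60, 6.66 and 6.64, a 1.34-fold decrease. Its second probe set, of the _x_at kind, gave -0.32 in liver and -0.56 in F9.

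**Figure D2:**
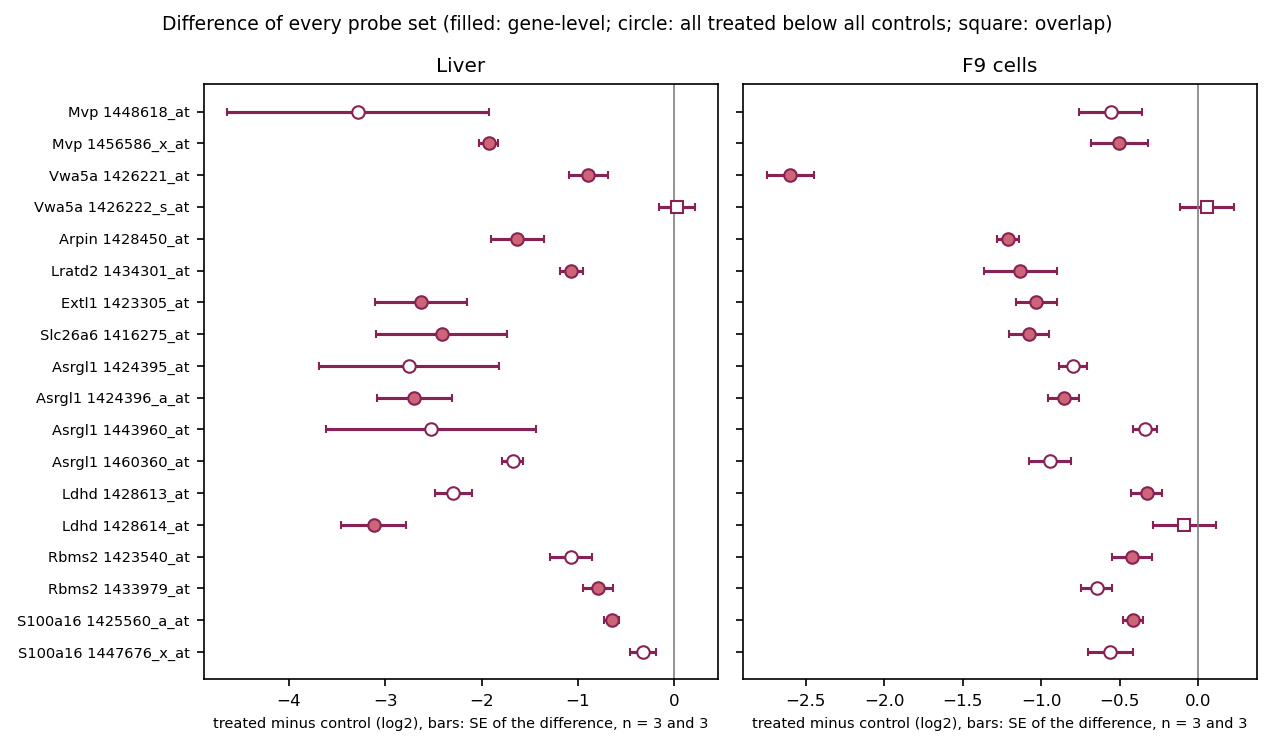
Difference between targeted and control arrays (horizontal axis, log2, with different ranges in the panels) for each of the 18 probe sets in liver (left) and F9 (right); filled symbols mark the gene-level probe set, circles groups that do not overlap, squares groups that overlap, and bars the SE of the difference (n = 3 and 3). In liver 17 of 18 symbols are circles, and in F9 16 of 18, the squares being the second probe set of Vwa5a in both panels and 1 of Ldhd in F9. The filled symbols are circles by the rule that chose the genes.

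Over the 18 probe sets, 17 gave a negative difference in each system. In each system 10 of the 18 are gene-level sets, whose sign the rule fixed. Of the 16 values from other probe sets, 2 had the opposite sign, both of Vwa5a. Of the 6 genes with more than 1 probe set, 4 (Mvp, Asrgl1, Rbms2 and S100a16) had every probe set wholly below the controls in both systems. Vwa5a was split in both systems, and Ldhd in F9. For 2 genes, Ldhd and Rbms2, the brightest probe set differed between liver and F9. The other 4 genes rest on 1 probe set each. The probe sets of a gene share the RNA and the array, so they repeat the labelling and binding step and not the sample.

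Promoter sequence was looked at as a feature the choice did not use. The RefSeq promoter table (GRCm38.p6) held 10 start sites for 8 of the 10 genes. Vwa5a and Lratd2 are named only. The 250 bases before the start are shown for Mvp and for the 3 genes that differed by more than 1 log2 unit in both systems and have an entry (Arpin, Extl1 and Slc26a6). Both Mvp probe sets lay below the controls in both systems. So did every probe set of Asrgl1, Rbms2 and S100a16, whose windows are not shown. Capitals mark matches on either strand to the GC box, spelled GGGCGG, or to the CCAAT box.
Arpin, chr7:79935265-79935514, minus strand: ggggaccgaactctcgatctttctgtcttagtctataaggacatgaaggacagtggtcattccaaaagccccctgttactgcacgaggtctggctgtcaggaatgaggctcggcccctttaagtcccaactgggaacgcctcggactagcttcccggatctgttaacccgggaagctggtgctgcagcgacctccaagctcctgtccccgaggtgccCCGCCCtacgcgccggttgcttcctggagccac
Extl1, chr4:134372548-134372797, minus strand: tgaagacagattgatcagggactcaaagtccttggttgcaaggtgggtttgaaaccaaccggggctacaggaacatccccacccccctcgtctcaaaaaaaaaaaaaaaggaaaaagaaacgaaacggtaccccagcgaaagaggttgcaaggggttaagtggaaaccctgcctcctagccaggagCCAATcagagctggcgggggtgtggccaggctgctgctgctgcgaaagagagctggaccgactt
Slc26a6, chr9:108853793-108854042, plus strand: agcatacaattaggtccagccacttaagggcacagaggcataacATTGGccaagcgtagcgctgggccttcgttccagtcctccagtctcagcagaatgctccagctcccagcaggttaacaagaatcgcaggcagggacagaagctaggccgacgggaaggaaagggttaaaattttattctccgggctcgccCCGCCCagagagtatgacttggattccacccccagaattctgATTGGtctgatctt
Mvp, chr7:127014595-127014844, minus strand: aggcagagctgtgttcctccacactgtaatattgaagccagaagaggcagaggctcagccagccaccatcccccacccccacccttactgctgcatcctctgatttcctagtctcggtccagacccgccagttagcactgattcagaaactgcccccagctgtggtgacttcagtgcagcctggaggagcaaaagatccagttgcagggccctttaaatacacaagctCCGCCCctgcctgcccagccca
Each of the 4 stretches shown holds a GC box or a CCAAT box, as do 7 of the 10 windows and 55.6% of all windows. The window of Asrgl1, 1 of the 2 of Rbms2 and 1 of the 2 of S100a16 hold neither, and the one of Slc26a6 holds 1 GC box and 2 CCAAT boxes.

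None of the 5 motifs searched was common to the 8 genes. A GC box was found in 4 of the 10 windows, and in 32.7% of all 32851 windows of the same length. A CCAAT box was found in 4 of the 10 windows and in 33.8% of all windows. The E-box CACGTG was in 1 of the 10 windows, that of Ldhd (6.0% of all windows), and the core of the antioxidant response element, TGACNNNGC, which Nrf2 binds, in 1 window of S100a16 (10.2% of all windows). The interferon gamma site TTCNNNGAA was in 0 of the 10 windows, against 7.0% of all. The median GC content of the 10 windows was 54.2% (range 39.6% to 59.6%) and that of all windows 52.4%. A match of letters is a description of these 250 bases and not a bound site. Mvp and Arpin both lie on chromosome 7, and the other 6 genes with an entry lie on 6 different chromosomes.

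The 10 genes are a part of a larger group. Among the 254 genes whose targeted arrays lay wholly below the controls in both systems, 14 differed by 1 log2 unit or more in both, and 4 of these are described here (Arpin, Slc26a6, Lratd2 and Extl1). Ranked by the smaller of the 2 differences, Vwa5a stood at 17, Asrgl1 at 20, Mvp at 51, Rbms2 at 66, S100a16 at 67 and Ldhd at 97. In all, 87 genes not described here had a larger smaller difference than Ldhd (0.33 in size). Just inside the rule were Mvp in F9, with groups 0.03 apart, and Ldhd in F9, 0.08 apart. Just outside it, among genes that differed by at least 1 log2 unit in the other system, were Cald1, which overlapped by 0.02 in liver (-0.34) while differing by -1.25 in F9, and Slc23a1 and Mmp19, which overlapped by 0.02 in F9 (-0.05 and -0.06) while differing by -1.01 and -3.59 in liver.

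**Figure D3:**
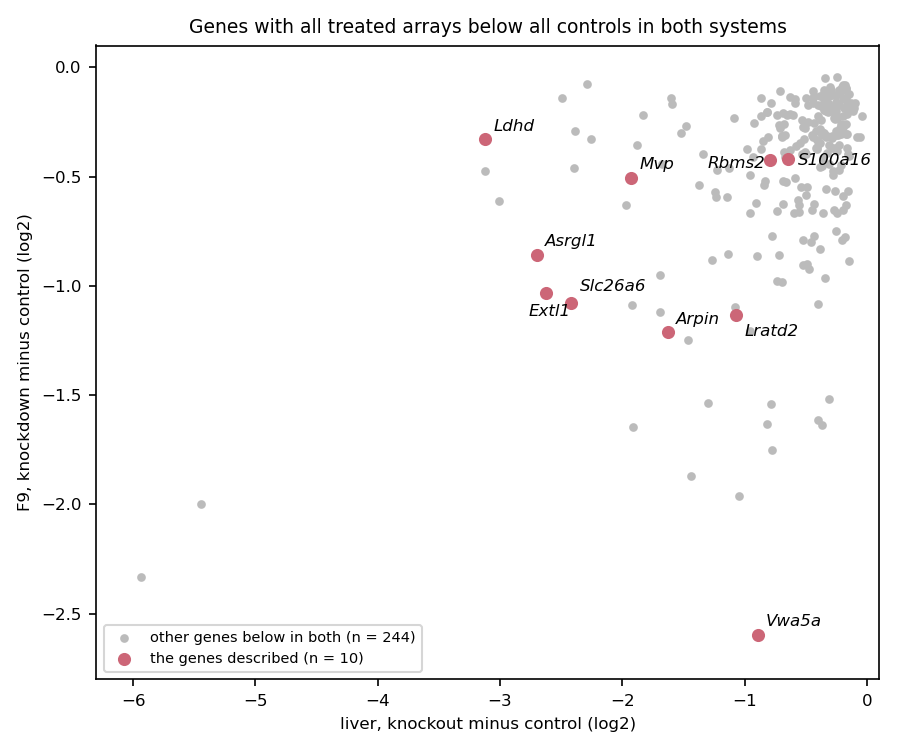
Liver difference (horizontal axis, log2) against F9 difference (vertical axis, log2) for the 254 genes whose 3 targeted arrays lay below the 3 controls in both systems; red points are the 10 genes described and grey points the other 244. Red points are spread over the cloud, from Ldhd (-3.12 in liver, -0.33 in F9) to Vwa5a (-0.89 and -2.60).

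The genes whose profile over the 12 arrays was nearest to the mean profile of the 10 were sought among 7383 other genes with a mean level above the median gene in both systems. Nearness was the root mean square difference, with each array expressed relative to its system's control mean. Bmf, which encodes a pro-apoptotic BH3-only protein, was nearest (0.27 log2 units; -1.92 in liver and -1.09 in F9). Cpd, the carboxypeptidase D gene (0.35), Cc2d2a, a gene of the ciliary transition zone (0.35), Tcf12, a basic helix-loop-helix factor (0.36), and Ptges2, which encodes a prostaglandin E synthase (0.37), followed, with liver differences of -1.84 to -1.23 and F9 differences of -0.60 to -0.34. Cpd was not among the genes wholly below in both systems. Of the 10 genes themselves, Arpin (0.25) and Mvp (0.28) were nearest to the common mean and Vwa5a (0.95) farthest. The limit on level was not put on the 10 genes, and Vwa5a, Arpin, Extl1, Slc26a6 and Ldhd did not meet it. The measure follows the group difference in both systems, so it shares with the rule what selected the 10 genes.

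Relatives of the 10 genes, which the rule did not choose, were tested in the fit over all genes. Of 100 genes on 10 family lists, 86 were measured. In liver 0 of the 86 passed at an adjusted p under 0.05 (limma), with 2 at an unadjusted p under 0.05, where 0.033% of all genes passed as lower and 0.011% as higher. In F9 4 relatives fell and 3 rose, where 4.64% of all genes fell and 2.56% rose, so these counts are near the background. The median difference of the relatives was 0.00 in both systems.

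Among the genes of heparan sulfate synthesis, 1 of 16 fell in F9: Extl2, which like Extl1 encodes an exostosin-like transferase (-0.72, SE 0.08, adjusted p = 0.00234, limma), and its second probe set gave -0.82. In liver Extl2 was at -0.28 (SE 0.16, adjusted p = 0.742, limma). Ext1, which with Ext2 elongates the chain, was at 0.25 in F9 (SE 0.08, adjusted p = 0.101, limma). The median of this list was 0.18 in liver and 0.07 in F9. Of the 16, 3 were negative in F9 and 7 in liver, Extl2 among them in both.

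Around Arpin, 2 of 18 genes of the Arp2/3 complex and its regulators fell in F9 and 0 rose. Wasf1, which encodes a WAVE protein that activates the complex, fell by 0.46 (SE 0.06, adjusted p = 0.00465, limma). Actr3, the Arp3 subunit gene, fell by 0.31 (SE 0.07, adjusted p = 0.0332, limma), and its other probe sets gave -0.27 and -0.09. Actr3 did not pass when its probe sets were averaged (adjusted p = 0.120, limma), or without any 1 of control samples 2 and 3 and knockdown samples 1, 2 and 3 (adjusted p = 0.096 to 0.121, limma). In liver the list had a median of -0.03, with Wasf1 at 0.01 (-0.04 after quantile normalization) and Actr3 at -0.14.

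Of 12 measured S100 genes, 1 fell and 1 rose in F9. S100a6, another EF-hand gene, fell by 0.90 (SE 0.15, adjusted p = 0.0121, limma), and did not pass without knockdown sample 2 (adjusted p = 0.066, limma) or 3 (adjusted p = 0.052, limma). S100a10, which encodes the partner of annexin A2, rose by 0.25 (SE 0.06, adjusted p = 0.0475, limma), and did not pass when any 1 of the 6 F9 samples was left out (adjusted p = 0.061 to 0.145, limma). The other 10 measured S100 genes did not pass. In liver S100a6 was at 0.89 (SE 0.50) and S100a10 at 0.41 (SE 0.23), neither passing.

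Rbms1, the paralog of Rbms2, rose in F9 by 0.59 (SE 0.07, adjusted p = 0.00198, limma), its second probe set giving 0.45, while Rbms3 was at 0.03. In liver Rbms1 was at -0.02 (SE 0.14), or 0.16 when its probe sets were averaged. Plaat3, a phospholipase gene with an LRAT-like domain as in Lratd2, rose in F9 by 0.53 (SE 0.08, adjusted p = 0.00577, limma) and was at -0.50 in liver (SE 0.23, adjusted p = 0.709, limma). Both of its probe sets were positive in F9 (0.53 and 0.61) and negative in liver (-0.09 and -0.50).

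The remaining families gave 0 genes that passed in limma in either system, with 2 values at an unadjusted p under 0.05, Parp4 in F9 and Slc26a1 in liver. Parp4, the vault component with poly(ADP-ribose) polymerase activity, was at 0.01 in liver (-0.24 on its second probe set) and 0.21 in F9 (SE 0.08, adjusted p = 0.167, limma). Of 9 measured SLC26 transporters, Slc26a1, a sulfate transporter gene, was lowest by p-value in liver (-0.44, SE 0.14, adjusted p = 0.594, limma). The 12 genes of lactate and methylglyoxal metabolism had medians of -0.01 and 0.02, and the 5 asparaginase and asparagine genes of -0.01 and -0.05. Of the 6 von Willebrand factor A domain genes, 0 had an unadjusted p under 0.05 in either system (limma).

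**Figure D4:**
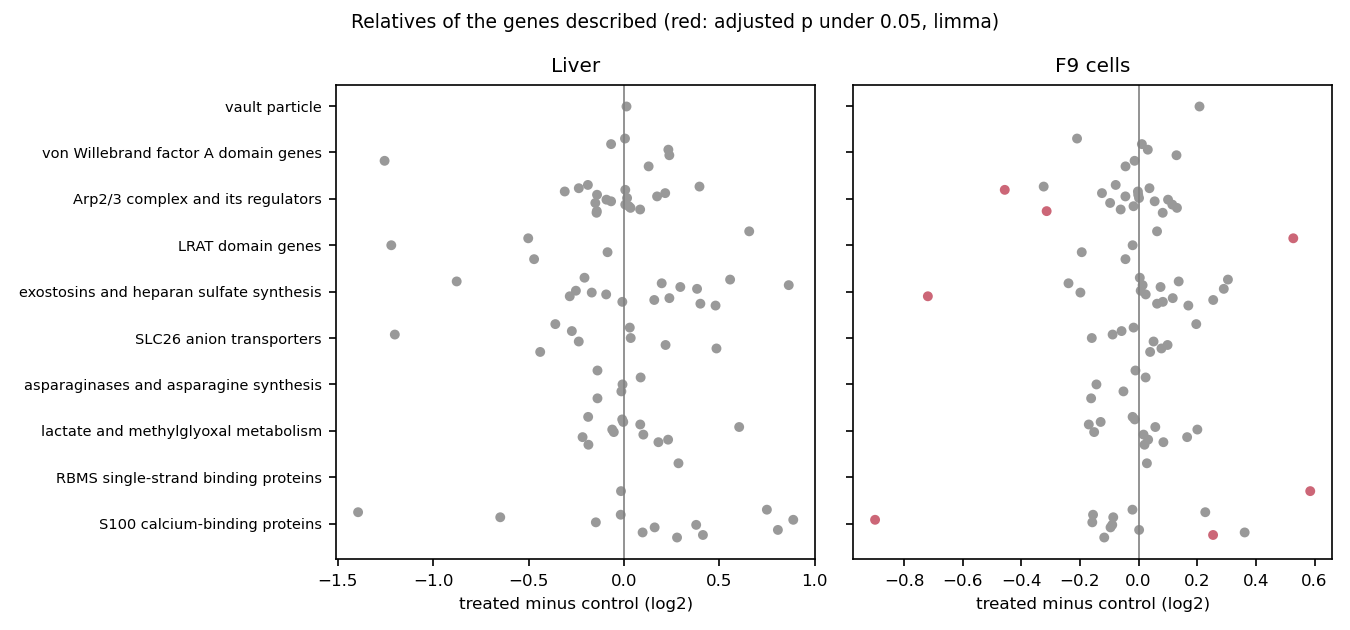
Difference between targeted and control arrays (horizontal axis, log2, with different ranges in the panels) for the 86 measured relatives by family list, in liver (left) and F9 (right); each point is a gene, and red marks an adjusted p under 0.05 in limma. There are 0 red points in liver and 7 in F9, 4 to the left of 0 and 3 to the right.

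Signals of each cell type marker list were summed on the linear scale and given as log2, so a sum follows its brightest genes. Such sums lay apart between the groups for some lists. The share of all genes with a negative difference is not given here, so nothing follows from the counts of negative markers. In liver 9 of 10 Kupffer cell and macrophage markers were negative. The log2 of their summed signals was 14.06 to 14.46 in control and 13.74 to 14.11 in mice labelled knockout, ranges that overlap. Of the lymphocyte and leukocyte markers 5 of 6 were negative, with sums of 9.67 to 9.85 against 9.40 to 9.48, and 4 of the 6 had control means below the array median (Cd3e, Cd3g, Cd79a and Nkg7). The 6 hepatocyte markers were all positive, with sums of 17.61 to 17.96 against 18.16 to 18.22. Sums of the primitive endoderm list, with 4 of 11 markers negative in liver, also lay apart (13.94 to 14.10 against 14.16 to 14.42). The brightest gene of that list in liver was Hnf4a (control mean 13.76). Sums overlapped between groups for the endothelial list (5 of 7 negative) and for the stellate and fibroblast list (5 of 9 negative), as for the cholangiocyte markers (1 of 4 negative). In F9 all 4 cholangiocyte and epithelial markers were negative, with sums of 11.45 to 11.57 in control and 11.20 to 11.27 in knockdown cells. All but Epcam were dim, and Epcam (control mean 11.46) made up nearly all of the sum. The 7 embryonal carcinoma markers were all positive (16.07 to 16.25 against 16.27 to 16.29), with Dppa5a the brightest (control mean 15.15). Of the 11 primitive endoderm markers 6 were negative (11.11 to 11.18 against 11.19 to 11.22), with 1 called higher and 1 lower in limma. Of the 7 endothelial markers 4 were negative (7.83 to 8.12 against 7.57 to 7.77), and 1, Pecam1, fell (-0.74). The 6 leukocyte markers were all positive in F9 and all below the array median (6.68 to 6.79 against 6.82 to 6.96). The list medians ran from -0.32 to 0.53 in liver and from -0.16 to 0.12 in F9. They are not set against the medians of the 10 genes, which the rule chose on these same differences. The part of these cell types in the differences of the 10 genes was not tested.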

How the data were processed

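Total RNA (100 ng) was biotin-labelled with a 3′ in vitro transcription kit for Affymetrix mouse arrays, per the labels' protocols. Software listed in the submitters' processing notes was R 3.0.1 with affy 1.38.1, no role stated, so background correction, summary method and normalization of the deposited log2 values are not given in the sources used here. A table of all 12 arrays held the same values as the separate liver and F9 tables (largest difference 0).

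Of 45101 probe sets, 34945 have 1 gene symbol, and they cover 18193 genes; 932 naming several genes, those without a symbol and the Affymetrix controls were left out. By Entrez identifier 34741 matched the gene table (GRCm38.p6), and 0 symbols changed. Each gene was represented by its brightest probe set on average across a comparison's 6 arrays. The fit of each comparison kept dim genes and used lmFit then eBayes of limma 3.58.1 (R 4.3.3), with two-sided p-values adjusted by Benjamini-Hochberg over all genes. The procedure was tested on simulated data. Alternatives were quantile normalization, median centring, the mean of probe sets, a filter on the dimmest 25% of genes, a replicate block, an intensity trend, and leaving out each array. The fit with an intensity trend also used the robust option of eBayes. The 10 genes, the family and marker lists, the motifs and the tests were chosen with earlier results of these data known. Named were the 10 genes, relatives that passed or had the smallest p-values of a list (up to 4), the 5 nearest profiles and the 3 genes just outside the rule. The number of arrays limits the precision, and p-values in F9 measure only the spread between these samples.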

Additional observations from a re-analysis of the deposited data

Results flagged for a closer look

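Park7, which encodes a protein of the oxidative stress response listed here with methylglyoxal metabolism, lay wholly above its controls in liver (0.085) and wholly below them in F9 (-0.17), so the groups were apart in opposite directions in the 2 systems. It passed in neither (adjusted p = 0.875 and 0.275, limma), and its second probe set gave 0.23 and 0.00. In the heparan sulfate list, which holds the N-deacetylase/N-sulfotransferase genes, Ndst2 was wholly above its controls in liver (0.20) and wholly below in F9 (-0.24), with adjusted p = 0.773 and 0.344 (limma). Ndst3 was wholly below in liver (-0.88) and wholly above in F9 (0.14), with adjusted p = 0.730 and 0.340 (limma), from control means of 5.19 and 3.70, which lie under the array medians. These were the 3 of 86 relatives with this arrangement, and the Ndst genes were named after their values were seen. The share of all genes with this arrangement is not given here, so nothing follows from the count. Lying wholly below the controls was alone found in 6.36% of all genes in liver and 15.7% in F9. The difference between the systems was not tested for any of the 3. Groups of 3 arrays are too small for a check on outlying arrays.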

How the results depend on the processing

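The 10 genes kept a negative difference under quantile normalization, median centring, the mean of probe sets and every array left out in turn; the exceptions in sign were the second Vwa5a probe set taken alone (0.028 in liver, 0.053 in F9). Of 196 such values 12 moved by more than the SD between replicates, each with other probe sets or their mean, as for Mvp (-2.61) and Vwa5a (-0.43) in liver and Vwa5a in F9 (-1.27). The median over the 10 genes was -1.87 to -1.62 in liver and -0.97 to -0.88 in F9 with an array left out. With the mean of probe sets, 9 of 10 lay wholly below in F9. Since the choice fixed the direction, this is no sign of stability. The genes wholly below in both numbered 254, and 281 to 424 with an array left out, fewer arrays making the arrangement easier to meet. In liver 8 genes passed in limma (6 lower), 2 after quantile normalization (both lower) and 2 with the mean of probe sets. Without the dimmest 25% of genes 25 passed, and 89 with an intensity trend and robust eBayes together. With the replicate block 0 passed, and 0 to 3 with an array left out. In F9 1310 passed, 662 with the replicate block and 524 to 1452 with an array left out. Of the relatives in F9, 7 passed, 4 with the replicate block and 4 to 8 with an array left out; with the block Actr3 (adjusted p = 0.103), S100a6 (0.058) and S100a10 (0.147) did not pass in limma. In a check of the replicate numbers, same-numbered arrays of the 2 groups gave r of -0.05 to 0.01 in liver and -0.22 to 0.01 in F9. These r values are not of the levels themselves, which correlated between groups at 0.943 to 0.949 in liver and 0.993 to 0.996 in F9. With 3 arrays per group the check cannot decide whether the numbers pair the arrays. S100a10 also did not pass after median centring (adjusted p = 0.070) or with the mean of probe sets (adjusted p = 0.095, limma). Ext1 passed with the intensity trend and robust eBayes together (adjusted p = 0.041, limma). Wasf1 in liver changed sign after quantile normalization (-0.036) and median centring (-0.019), and with an array left out ran from -0.25 to 0.27. Rbms1 in liver changed sign with the mean of probe sets (0.16) and ran from -0.066 to 0.054 with an array left out. The cause of these changes was not tested. Signals near or under the array medians limit what a difference there can show. In F9 these were Ldhd and Vwa5a (above the median on 3 of 6 arrays), Arpin (on 1 of 6) and Slc26a6 (on 4 of 6). In liver they were Arpin and Slc26a6 (on 3 of 6) and Extl1 and Asrgl1 (on 4 of 6).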
